A study of Homo sapiens with 4 samples.

Results

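Newly made collagen chains are hydroxylated in the endoplasmic reticulum and cross-linked after secretion, and 10 genes of these steps were followed: the lysyl oxidases LOX, LOXL1, LOXL2, LOXL3 and LOXL4, the lysyl hydroxylases PLOD1, PLOD2 and PLOD3, and P4HA1 and P4HA2, the catalytic subunits of prolyl 4-hydroxylase. They were chosen by symbol, and all 10 were found among 57905 gene identifiers. Polyadenylated RNA was sequenced in 4 libraries of a cell line that the labels call MG63, an established human osteosarcoma (bone tumour) line. Of these, 2 came from cells given a control siRNA and 2 from cells given an siRNA against KLF11, a Krüppel-like zinc finger transcription factor, and all were harvested 48 hours after transfection. The growth medium and serum were common to all libraries, and the labels name no other treatment. They do not say that replicates were separate cultures, so each p-value reflects the spread between libraries alone, and that spread may be technical. Levels are FPKM, fragments scaled by gene length and by the size of the library, and without counts the depth of each library is unknown.

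Prolyl 4-hydroxylase makes the hydroxyproline that keeps the collagen triple helix stable at body temperature. It joins an alpha subunit such as P4HA1 or P4HA2 to the shared beta subunit P4HB, and it needs iron, oxygen, 2-oxoglutarate and ascorbate. Lysyl hydroxylases add the hydroxyl groups that carry sugars and set the type of cross-link, and the secreted, copper-dependent lysyl oxidases then oxidise lysines so that chains bond covalently. In bone this chemistry sets how stiff the matrix becomes, and several of these genes are known hypoxia-inducible targets.

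KLF11, the target of the siRNA, measured 12.3 and 12.4 FPKM with control siRNA, and 5.49 and 6.74 FPKM after KLF11 siRNA, 2.02-fold lower on average. Its adjusted p was 0.00951 (limma), and 0.107 at most with 1 library left out. Genes with a mean of at least 1 FPKM over the 4 libraries were tested with limma on log2(FPKM + 1), a scale that understates the change of low genes, with Benjamini-Hochberg adjustment over all 15320 genes tested and a threshold of 0.05. Of these genes 13.5% were called higher and 21.7% lower with KLF11 siRNA (2071 and 3329 genes). Over the tested genes the log2 change had a median of -0.11. Scaling libraries by the median of ratios brought this to 0.01, with 2758 calls higher and 2589 lower, and quantile normalization gave 2619 and 2629 such calls.

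The labelled cell type was checked against marker genes. Of 11 mesenchymal and osteoblast markers most were well expressed in every library, among them SPARC, FN1, COL6A1, COL6A2, COL1A2 and ALPL, and their summed level was 1847 and 1722 FPKM with control siRNA against 2346 and 2431 FPKM after KLF11 siRNA. Of the 9 tested, 2 rose and 2 fell, the latter being COL1A1 (1.65-fold) and COL6A1 (1.60-fold). On average VIM alone rose by more FPKM than the sum did, so the higher sum does not describe the markers in general. VIM, an intermediate filament protein of mesenchymal cells, rose 5.84-fold from 144 and 131 FPKM to 808 and 800 FPKM (adjusted p = 0.00072, limma), and THY1, a surface glycoprotein of mesenchymal cells, rose 7.59-fold (adjusted p = 0.00138, limma). RUNX2, the osteoblast lineage factor, was at 0.03 and 0.02 FPKM with control siRNA, and 0.60 and 0.65 FPKM after KLF11 siRNA. COL3A1, a fibrillar collagen of mesenchymal cells, was listed at 0.01 and 0 FPKM in control and at 1.40 and 0.95 FPKM in KLF11 siRNA libraries. Meanwhile CER1, EPCAM, KRT8 and POU5F1, genes of early endoderm, epithelia and pluripotent cells, were among the abundant transcripts of every library. SOX17 and GATA4, also of early endoderm, had means of 132 and 106 FPKM with control siRNA, and LIN28A, of pluripotent cells, 390 FPKM. Most mesenchymal markers went with the label, but whether they are particular to such a line was not tested. The near absence of RUNX2 and COL3A1 and the abundance of the other markers went against it. The labelled identity is thus in doubt, so the libraries are called here only by their siRNA. RUNX2 and COL3A1 were singled out after their values were seen. Summed over 7 epithelial markers, of which 6 fell, the control libraries held 2126 and 1953 FPKM and the others 738 and 1009 FPKM. Summed over 6 early endoderm markers, of which 4 fell, the sums were 4875 and 4845 FPKM against 1017 and 2736 FPKM, most of it CER1, which did not itself pass (adjusted p = 0.0543, limma). Summed over 5 pluripotency markers, of which 4 rose and 1 fell, they were 717 and 699 FPKM against 2049 and 1617 FPKM. None of these markers was at 0 in every library. The 5 leukocyte markers did not exceed 0.4 FPKM in any library, with CD3E at 0 throughout. A change in the make-up of the cells and a change of RNA per cell cannot be told apart in bulk libraries, and the part of these markers in the results that follow was not tested.

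Among the 10 enzyme genes 9 passed the filter, and of these LOXL2 and P4HA1 rose, P4HA2 fell and 6 did not pass the test. The members called made up 33.3% of those tested, near the 35.2% of all tested genes that were called in either direction, so the number of calls is not particular to these enzymes. Their median log2 change was -0.03. Without control siRNA replicate 1 or without control siRNA replicate 2 the fit rested on a lone control library, assumed to vary like the KLF11 siRNA pair, and none of the 3 calls passed. The adjusted p of LOXL2 was then 0.0639 or 0.0729, that of P4HA1 0.141 or 0.0982 and that of P4HA2 0.183 or 0.184 (limma). Relative to the median-of-ratios scaling, which shifts all genes upward by about the size of the median, the log2 changes were 1.77 for LOXL2, 0.58 for P4HA1 and -0.89 for P4HA2.

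**Figure D1:**
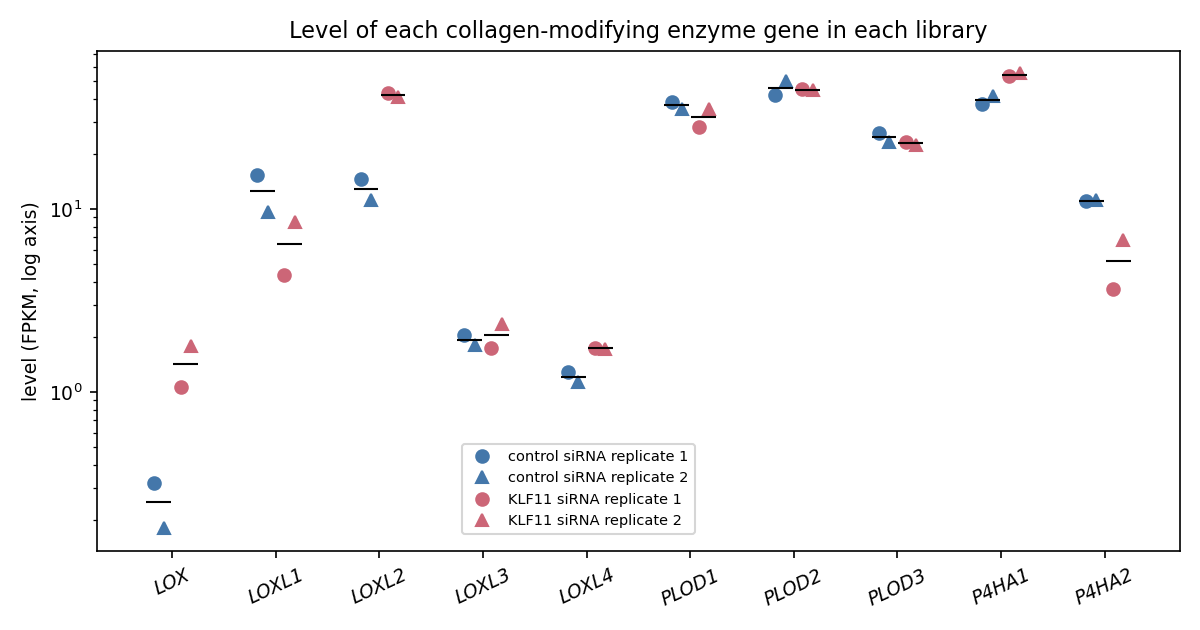
Level of each of the 10 genes in FPKM on a log axis, with control siRNA libraries in blue, KLF11 siRNA libraries in red, circles for replicate 1, triangles for replicate 2 and a bar at each group mean. LOXL2 sits near 12.8 FPKM with control siRNA and near 41.8 FPKM after KLF11 siRNA, P4HA2 moves the other way, and the PLOD genes stay close together.

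The lysyl oxidases differed most in level and in response. LOXL2 (ENSG00000134013), a secreted oxidase known to cross-link the type IV collagen of basement membranes, was at 14.5 and 11.2 FPKM with control siRNA, and 43.0 and 40.7 FPKM after KLF11 siRNA. Both KLF11 siRNA libraries lay well above both controls, and the 4 ratios between a KLF11 siRNA and a control library ran from 2.81 to 3.85. The group means of 12.8 ± 2.34 and 41.8 ± 1.62 FPKM (SD, n = 2 each) differed 3.27-fold, with a log2 change of 1.64 (SE 0.142, 95% interval 1.28 to 2.00, adjusted p = 0.00347, limma). Among tested genes it stood at percentiles 57.6 and 51.3 of level in the control libraries and at 85.7 and 85.0 in the KLF11 siRNA libraries. ENTPD4, which overlaps LOXL2 on the same strand, had lower values and did not pass, at 33.4 and 31.8 FPKM with control siRNA, and 21.3 and 28.2 FPKM after KLF11 siRNA (adjusted p = 0.0932, limma).

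LOXL1 (ENSG00000129038), the relative best known for elastin, went the other way in its values but did not pass. It measured 15.3 and 9.67 FPKM with control siRNA, and 4.35 and 8.46 FPKM after KLF11 siRNA. The groups did not overlap, yet control siRNA replicate 2 and KLF11 siRNA replicate 2 lay close, and the ratios between libraries ran from 0.284 to 0.875. The log2 change was -0.89 (95% interval -1.74 to -0.04), with an unadjusted p of 0.0433 and an adjusted p of 0.0934 (limma). LOXL1 passed if KLF11 siRNA replicate 2 was left out (adjusted p = 0.0229, limma), and its change was -0.48 if replicate 1 was. The antisense transcript LOXL1-AS1, which overlaps the start of LOXL1 on the opposite strand, was at 6.22 and 5.42 FPKM with control siRNA, and 2.65 and 3.49 FPKM after KLF11 siRNA (log2 change -0.75, adjusted p = 0.0277, limma). That call was lost with no filter (adjusted p = 0.0875, limma), without KLF11 siRNA replicate 1 (0.0571) and without either control library (0.198 and 0.139). The strand setting is not given in the sources used here, so reads of LOXL1 and LOXL1-AS1 in the shared stretch cannot be told apart.

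LOX (ENSG00000113083), the founding member of the family, was scarce. It was at 0.32 and 0.18 FPKM with control siRNA, and 1.06 and 1.79 FPKM after KLF11 siRNA. Its mean of 0.838 FPKM over the libraries kept it under the filter, so it was not tested in the main fit. Every KLF11 siRNA library was above every control library, at means of 0.25 ± 0.099 and 1.43 ± 0.516 FPKM (SD, n = 2 each). With no filter its adjusted p was 0.0885 (limma). With scaling to TPM LOX reached a mean of 1, with a log2 change of 1.22. It also did so without control siRNA replicate 1 (1.02) and without control siRNA replicate 2 (0.86). In these fits LOX cleared the filter only through the KLF11 siRNA libraries, where it was higher, so no p-value is read from them. LOXL3 (ENSG00000115318), a related oxidase, was at 2.06 and 1.80 FPKM with control siRNA, and 1.75 and 2.36 FPKM after KLF11 siRNA, which overlap. Its log2 change had a 95% interval of -0.44 to 0.55 (adjusted p = 0.847, limma). LOXL4 (ENSG00000138131), also a secreted oxidase, was at 1.29 and 1.14 FPKM with control siRNA, and 1.75 and 1.72 FPKM after KLF11 siRNA. Those groups did not overlap, but the interval of -0.16 to 0.77 held 0 (adjusted p = 0.248, limma).

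**Figure D2:**
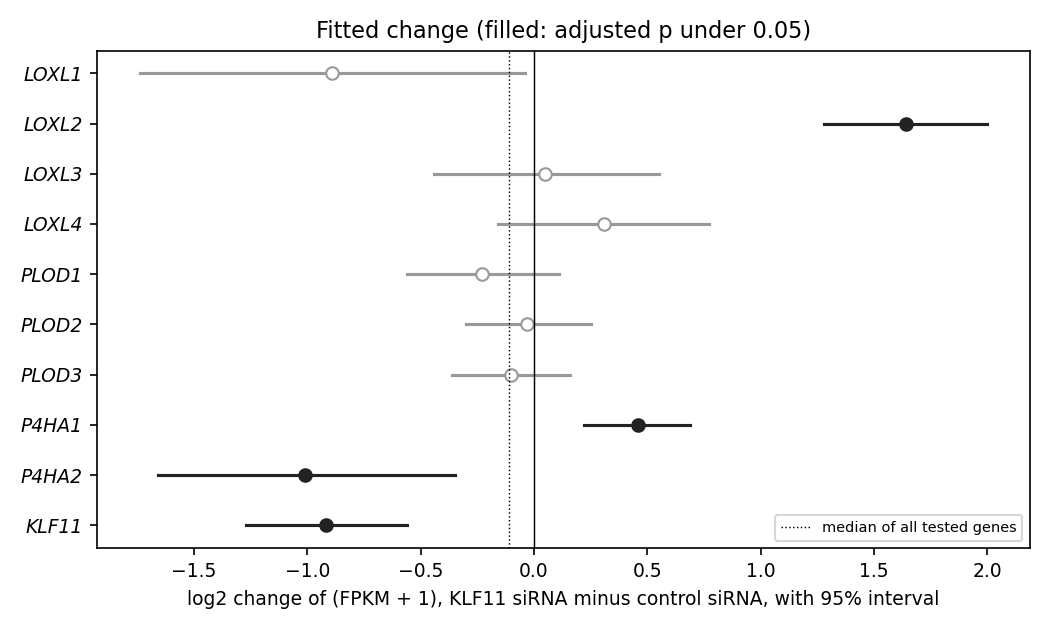
Fitted log2 change of (FPKM + 1), KLF11 siRNA minus control siRNA, with its 95% interval for the 9 tested enzyme genes and KLF11, where filled points passed the threshold and the dotted line is the median of all tested genes, -0.11. LOXL2 at 1.64 and P4HA1 at 0.46 lie to the right, and P4HA2 at -1.01 lies to the left near KLF11 at -0.92.

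The make-up of the lysyl oxidase family differed between the groups. Summed over the 5 genes, the level was 33.4 and 23.9 FPKM with control siRNA, and 51.9 and 55.0 FPKM after KLF11 siRNA. LOXL2 held 43.2% and 46.6% of that sum in control and 82.8% and 73.9% in KLF11 siRNA libraries. LOXL1 held 45.8% and 40.4% in control and 8.39% and 15.4% in KLF11 siRNA libraries. The ratio of LOXL2 to LOXL1, which does not depend on scaling between libraries, was 0.944 and 1.15 in control and 9.88 and 4.81 in KLF11 siRNA libraries. In control libraries the levels of LOXL2, LOXL1 and P4HA2 followed each other with overlapping values, and in KLF11 siRNA libraries LOXL2 stood apart from LOXL1 and P4HA2. No exact permutation test of such ratios can reach 0.05 with 2 libraries a group, so none was made.

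**Figure D3:**
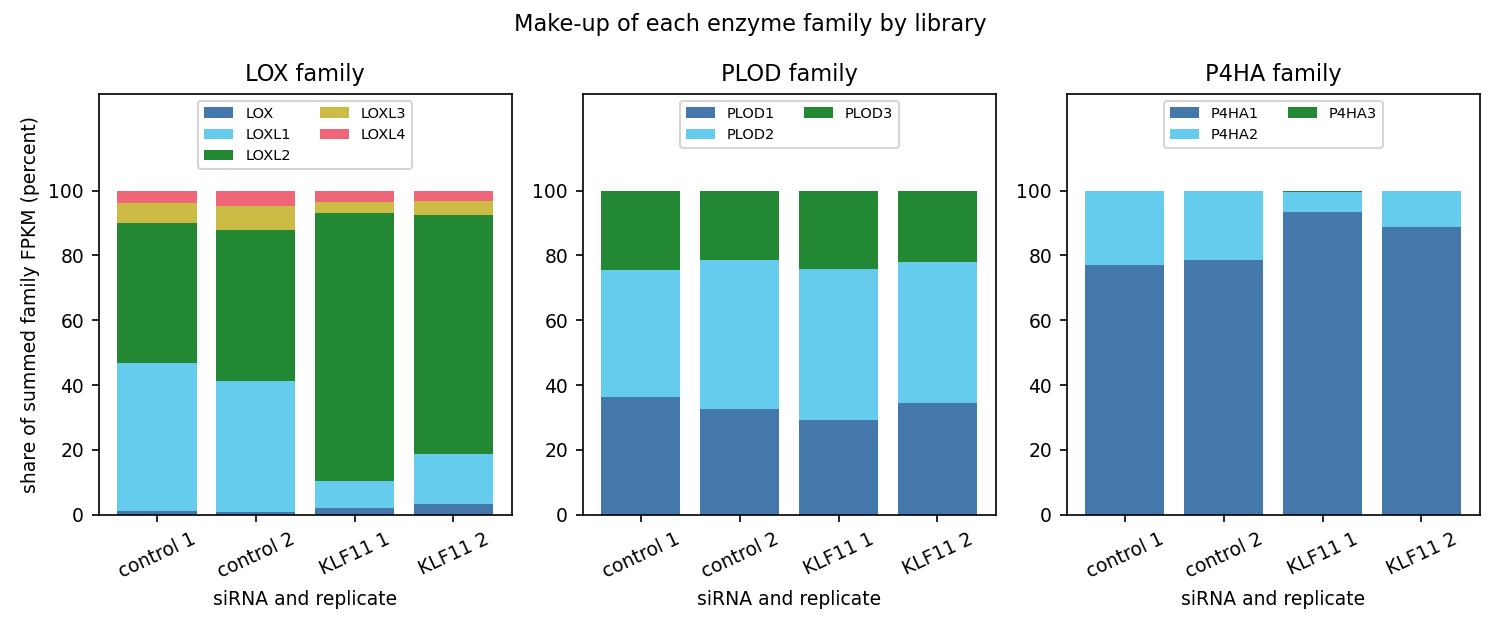
Share of the summed FPKM of each family held by each gene, in percent, with 1 bar per library. The LOXL2 share goes from 43.2% and 46.6% to 82.8% and 73.9%, the P4HA1 share from 77.1% and 78.5% to 93.3% and 88.8%, and the PLOD shares overlap between the groups.

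The prolyl 4-hydroxylase subunits moved in opposite directions. P4HA1 (ENSG00000122884), the more abundant alpha subunit here, was at 37.3 and 41.3 FPKM with control siRNA, and 53.4 and 55.0 FPKM after KLF11 siRNA. Both KLF11 siRNA libraries were above both controls. The group means were 39.3 ± 2.87 and 54.2 ± 1.15 FPKM (SD, n = 2 each), 1.38-fold higher, with a log2 change of 0.46 (SE 0.0929, 95% interval 0.22 to 0.69, adjusted p = 0.0194, limma). With no filter that call was lost (adjusted p = 0.0576, limma). P4HA2 (ENSG00000072682), the second alpha subunit, was at 11.0 and 11.2 FPKM with control siRNA, and 3.65 and 6.79 FPKM after KLF11 siRNA. It was lower in both KLF11 siRNA libraries, which differed from each other far more than the controls did. KLF11 siRNA replicate 2 lay between replicate 1 and the control mean in 5 members and in 58.6% of all tested genes. That order is therefore not particular to P4HA2. Group means came to 11.1 ± 0.17 and 5.22 ± 2.22 FPKM (SD, n = 2 each), 2.13-fold lower, with a log2 change of -1.01 (SE 0.259, 95% interval -1.66 to -0.35, adjusted p = 0.0353, limma). That call was lost with no filter (adjusted p = 0.119, limma) and without a variance trend (adjusted p = 0.0509, limma), and the size of the change was -0.64 if KLF11 siRNA replicate 1 was left out and -1.38 if replicate 2 was.

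The intervals of P4HA1 and P4HA2 did not overlap. There were 3.39 and 3.68 FPKM of P4HA1 for each FPKM of P4HA2 in control libraries and 14.6 and 8.10 in KLF11 siRNA libraries. P4HA2 held 22.7% and 21.3% of the summed alpha subunits in control and 6.38% and 11.0% in KLF11 siRNA libraries. P4HA3, the third alpha subunit, reached at most 0.16 FPKM. The sum of the alpha subunits was 48.4 and 52.7 FPKM with control siRNA, and 57.2 and 62.0 FPKM after KLF11 siRNA. P4HB, the shared beta subunit that is also a protein disulfide isomerase, was far more abundant, at 315 and 314 FPKM with control siRNA, and 343 and 338 FPKM after KLF11 siRNA (adjusted p = 0.301, limma). PDLIM4, a gene that overlaps P4HA2 on the opposite strand, was at 8.47 and 8.27 FPKM with control siRNA, and 2.59 and 5.05 FPKM after KLF11 siRNA (log2 change -1.01, adjusted p = 0.0379, limma). Its call was lost with no filter (adjusted p = 0.125, limma), without a variance trend (0.0519) and without either control library (0.199 and 0.185). Reads in the stretch that PDLIM4 and P4HA2 share cannot be assigned without the strand setting.

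The lysyl hydroxylases were abundant, and none of the 3 passed. PLOD1 (ENSG00000083444), which hydroxylates lysines in the triple helix, was at 38.6 and 35.4 FPKM with control siRNA, and 28.2 and 35.1 FPKM after KLF11 siRNA. KLF11 siRNA replicate 2 lay just below the lower control, and the log2 change was -0.23 (95% interval -0.56 to 0.11, adjusted p = 0.234, limma). Without KLF11 siRNA replicate 2 the change was -0.38 and passed (adjusted p = 0.0496, limma). PLOD2 (ENSG00000152952), the enzyme of the collagen ends whose hydroxylysines give the cross-links typical of bone and of fibrosis, was at 42.1 and 49.8 FPKM with control siRNA, and 45.4 and 44.5 FPKM after KLF11 siRNA. Both KLF11 siRNA values lay between the controls, and the 95% interval of the log2 change was -0.30 to 0.25 (adjusted p = 0.866, limma). PLOD3 (ENSG00000106397), which also adds sugars to hydroxylysine, was at 26.1 and 23.2 FPKM with control siRNA, and 23.3 and 22.5 FPKM after KLF11 siRNA. Its interval was -0.36 to 0.16 (adjusted p = 0.488, limma). The fitted sign of PLOD2 and PLOD3 was negative, and it turned positive with median-of-ratios scaling (0.10 and 0.03) and with quantile normalization (0.03 and 0.01). Their unadjusted p-values were 0.145 for PLOD1, 0.816 for PLOD2 and 0.380 for PLOD3 (limma). The family as a whole summed to 107 and 108 FPKM with control siRNA, and 96.9 and 102 FPKM after KLF11 siRNA, and PLOD2 held 39.4% and 45.9% of it in control against 46.8% and 43.5%.

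In order of level, the control libraries ran from PLOD2 at a mean of 45.9 FPKM through P4HA1, PLOD1, PLOD3, LOXL2, LOXL1, P4HA2, LOXL3 and LOXL4 to LOX at 0.25 FPKM. The neighbours P4HA1 and PLOD1, LOXL2 and LOXL1, and LOXL1 and P4HA2 overlapped between libraries. In KLF11 siRNA libraries P4HA1 came first at a mean of 54.2 FPKM, followed by PLOD2 and then LOXL2, while LOXL1 and P4HA2, LOXL3 and LOXL4, and LOXL4 and LOX overlapped. Of the 9 tested genes, 3 were higher and 3 lower with no overlap between groups, against 28.9% and 44.5% of all tested genes (73.4% in either direction), so these counts are not particular to the enzymes either.

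Known targets of hypoxia-inducible factors among the members include P4HA1, PLOD2 and LOX. This choice may leave out others, such as P4HA2, which fell, or LOXL2, which rose. Here the values of P4HA1, PLOD2 and LOX differed. P4HA1 was higher, PLOD2 was within the control range, and LOX was low but higher in both KLF11 siRNA libraries. The sequences upstream of their RefSeq starts (GRCh38.p14) are shown because they are the members whose windows hold ACGTG, a core of the hypoxia response element. Windows were the 250 bases before each start, bases annotated as exon in GENCODE release 29 are left out of the print except for a short stretch of P4HA1, and capitals mark the motifs searched.
P4HA1 upstream, chr10:73096975-73097116, minus strand: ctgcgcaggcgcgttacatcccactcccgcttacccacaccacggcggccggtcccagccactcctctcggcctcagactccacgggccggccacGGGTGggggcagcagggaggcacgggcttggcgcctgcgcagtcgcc
P4HA1 ACGTG match, chr10:73096935-73096964, minus strand: tgtgatcgagctCACGTagcgagggctgca
PLOD2 upstream, chr3:146161185-146161434, minus strand: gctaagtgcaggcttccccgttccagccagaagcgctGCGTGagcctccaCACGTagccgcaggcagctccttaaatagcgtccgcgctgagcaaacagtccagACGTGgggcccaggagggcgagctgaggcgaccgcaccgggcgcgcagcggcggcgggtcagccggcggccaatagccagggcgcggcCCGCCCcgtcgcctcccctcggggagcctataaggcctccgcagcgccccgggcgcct
LOX upstream, chr5:122078361-122078509, minus strand: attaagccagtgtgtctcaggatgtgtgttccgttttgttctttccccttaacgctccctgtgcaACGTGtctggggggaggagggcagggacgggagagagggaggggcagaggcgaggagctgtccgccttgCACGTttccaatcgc
The capitals in these stretches are ACGTG or GCGTG or their reverse complements, a CACCC box read as GGGTG in P4HA1, and a GC box read as CCGCCC in PLOD2. The motifs were searched on both strands, and matches may share bases. The 9 genes with an entry had 12 windows. ACGTG was in 5 of these and in 18.5% of all 35116 RefSeq windows of that length, and GCGTG in 5 against 32.2%. By gene, ACGTG was found for 3 of 9 and GCGTG for 4 of 9, since LOX adds several windows. The shares of all windows are not by gene, so the counts do not show an excess of either motif. GGGCGG, the GC box of SP and KLF factors, was in 6 of the 12 windows against 42.6% of all windows, and CACCC in 5 against 54.7%. GGAATG, a TEAD motif, was in 1 window, of LOXL3, against 11.9% of all windows. The windows of P4HA2 and LOXL1 held none of the 5 motifs, which says only that these letters are not in those windows. LOX and LOXL3 have more than 1 start, and LOX windows partly overlap, so a shared ACGTG site is counted more than once. Those overlapping LOX windows lie downstream of the first LOX start, within the gene. The full window of the first LOX start held 4 ACGTG matches, of which the printed stretch shows 2. No LOXL2 window was used here.

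Other genes of the collagen pathway, 98 in 8 lists, were read in the same fit, and of 74 tested 11 rose and 19 fell. These are 14.9% and 25.7% of the tested genes, against 13.5% and 21.7% of all tested genes. The same shares of all tested genes are the background for the counts of each list below, and the lists are short. Without control siRNA replicate 1 or replicate 2 the fit rested on a lone control library. Nearly all calls were then lost, among these 30 and among all tested genes, so the loss is not particular to the pathway. With no filter 16 of the 30 were kept.

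Among the other collagen-modifying enzymes in the endoplasmic reticulum, 2 of 9 tested genes fell and 7 did not pass, with a median log2 change of 0.02. P3H2, a prolyl 3-hydroxylase known for type IV collagen, fell from 272 and 274 FPKM to 96.6 and 153 FPKM (adjusted p = 0.0158, limma). P4HTM fell from 7.50 and 6.42 FPKM to 2.68 and 2.06 FPKM (adjusted p = 0.00809, limma), but it encodes a transmembrane prolyl hydroxylase that is not known for acting on collagen. Of the chaperones and export factors 2 of 19 tested genes rose and 2 fell, with a median of 0.06. FKBP14, a prolyl isomerase that assists collagen folding, rose from 10.1 and 10.4 FPKM to 84.4 and 50.9 FPKM (adjusted p = 0.0039, limma). PDIA3, a disulfide isomerase, rose 1.31-fold, while FKBP9, another prolyl isomerase, fell 2.16-fold and SEC23A, a coat protein of export vesicles, fell from 37.1 and 39.4 FPKM to 28.8 and 29.9 FPKM. SERPINH1, the collagen chaperone HSP47, was at 384 and 372 FPKM with control siRNA, and 410 and 367 FPKM after KLF11 siRNA (adjusted p = 0.766, limma; named after its values were seen).

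**Figure D4:**
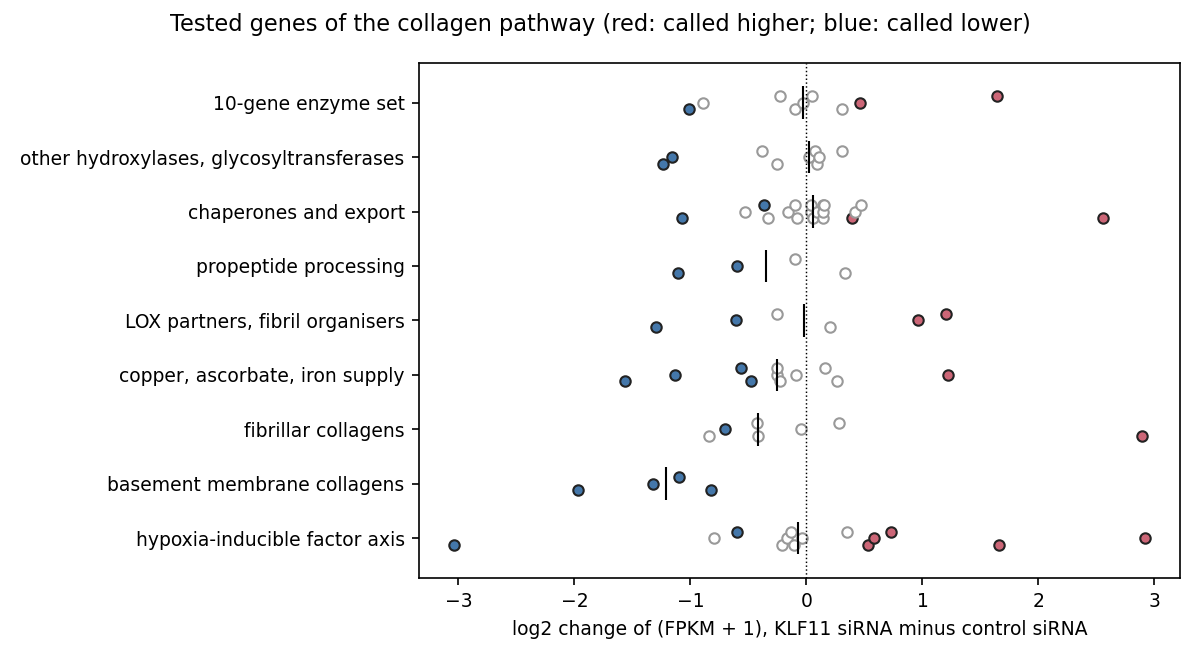
Log2 change of (FPKM + 1), KLF11 siRNA minus control siRNA, for each tested gene of the enzyme set and of 8 other pathway lists, with genes called higher in red, genes called lower in blue, genes that did not pass open and a bar at each list's median. The 4 basement membrane collagens lie at negative values around a median of -1.21, while the enzyme set spreads on both sides of a median of -0.03.

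The collagens, substrates of these enzymes, gave other changes. COL1A1, a chain of the main bone collagen, fell from 23.3 and 22.3 FPKM to 11.9 and 15.8 FPKM (adjusted p = 0.0234, limma), and COL11A1, a fibril-nucleating chain, rose from 3.60 and 3.70 FPKM to a mean of 33.6 ± 5.03 FPKM (SD, n = 2, adjusted p = 0.00137, limma). Of 7 tested fibrillar collagens these were the calls, and COL1A2, COL2A1, COL5A1, COL5A2 and COL27A1 did not pass. COL1A2 was at 133 and 126 FPKM with control siRNA, and 136 and 115 FPKM after KLF11 siRNA. All 4 tested basement membrane collagens fell, namely COL4A1 2.52-fold, COL4A2 2.16-fold, COL4A5 1.80-fold and COL4A6 4.14-fold, and their summed level with the 2 scarce chains went from 316 and 298 FPKM to 116 and 136 FPKM. LOXL2 per COL4A1 was 0.105 and 0.0831 in control and 0.818 and 0.735 in KLF11 siRNA libraries. P4HA1 per COL1A1 was 1.60 and 1.85 in control and 4.50 and 3.49 in KLF11 siRNA libraries, and PLOD1 per COL1A1 was 1.66 and 1.59 against 2.38 and 2.23. In each of these ratios the groups did not overlap. For LOXL2 and P4HA1 this had to follow, because the enzyme gene was higher and the collagen lower in both KLF11 siRNA libraries. PLOD1 was itself lower, and its ratio rose because COL1A1 fell further. Epithelial and early endoderm markers were lower in the same libraries, by the sums given above.

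Among lysyl oxidase partners and fibril organisers 2 of 6 tested genes rose and 2 fell. FBLN5, fibulin 5, which binds LOXL1 in elastic fibre assembly, rose from 6.72 and 6.02 FPKM to 14.2 and 12.4 FPKM (adjusted p = 0.00789, limma), and THBS1, a matricellular protein, rose 2.51-fold. EFEMP2, fibulin 4, a binding partner of LOX, fell from 37.0 and 28.2 FPKM to 9.05 and 17.1 FPKM (adjusted p = 0.0267, limma), and FBLN1 fell 1.52-fold. Of the procollagen-processing genes 4 were tested, and PCOLCE2 and PCOLCE, enhancers of the C-proteinase BMP1, fell 2.38-fold and 1.57-fold. BMP1 itself, which also activates LOX, was at 6.47 and 4.94 FPKM with control siRNA, and 7.49 and 7.24 FPKM after KLF11 siRNA (adjusted p = 0.169, limma; named after its values were seen).

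The cofactors of these enzymes are iron and ascorbate for the hydroxylases and copper for the oxidases, and of 11 tested supply genes 1 rose and 4 fell. TFRC, the transferrin receptor for iron uptake, rose from 39.5 and 42.7 FPKM to 93.5 and 100 FPKM (adjusted p = 0.00287, limma). FTH1, the ferritin heavy chain, fell 1.39-fold, although its reads can be shared with pseudogenes. ATP7B, a copper-transporting ATPase, fell from 7.10 and 5.91 FPKM to 1.28 and 1.82 FPKM (adjusted p = 0.00611, limma), and ATOX1, a copper chaperone, fell 1.48-fold. GLRX, a glutaredoxin, fell 2.15-fold. ATP7A, the ATPase known to load copper onto lysyl oxidases, had 1.28 FPKM in each control, and 0.93 and 0.95 FPKM after KLF11 siRNA (adjusted p = 0.384, limma; named after its values were seen).

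In the hypoxia-inducible factor list 5 of 14 tested genes rose and 2 fell, against 13.5% and 21.7% of all tested genes. The median log2 change was -0.07. SLC2A1, a glucose transporter, rose from 13.2 and 11.3 FPKM to 100 and 97.5 FPKM (adjusted p = 0.00072, limma), and EPAS1, which encodes HIF-2 alpha, rose from 0.75 and 0.94 FPKM to 5.19 and 4.48 FPKM (adjusted p = 0.005, limma). PGK1 and LDHA, glycolytic enzymes, rose 1.45-fold and 1.68-fold, and ADM, a secreted peptide, 1.52-fold. VEGFA, the angiogenic factor, fell 8.87-fold, from 73.7 and 69.8 FPKM to 6.09 and 10.1 FPKM (adjusted p = 0.00264, limma), and ARNT, the partner of the factors, fell 1.55-fold. Beside these, P4HA1 rose 1.38-fold, PLOD2 did not pass and LOX was not tested in the main fit. The other enzyme genes called were LOXL2, which rose 3.27-fold, and P4HA2, which fell 2.13-fold. No oxygen measurement was used here.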

How the data were processed

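The authors deposited FPKM values with 2 decimals, 1 column per library, for 57905 gene identifiers with symbols. Reads were trimmed and quantified with tools that the submitters' processing notes list as Trim Galore (0.5.0) and RSEM (1.3.1), with hg19 as the build; which aligner, annotation, strand setting and filters were used is not given in the sources used here. Groups came from the sample titles, and 0 columns were left unmatched. Replicates were not duplicates of each other (identical values in 0.548% of genes or fewer), and each library counted as a sample. FPKM depends on what else is abundant in a library and keeps no read depth.

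Genes with a mean of at least 1 FPKM were tested by limma's moderated test with a variance trend (limma 3.58.1, R 4.3.3) on log2(FPKM + 1), 2 groups, no block, Benjamini-Hochberg adjustment over all genes tested. Folds are ratios of mean FPKM. Named were KLF11, the 10 enzyme genes, up to 4 called genes with the smallest p of each pathway list, all fibrillar collagens tested and up to 3 of the most abundant markers a list; ALPL, RUNX2, COL3A1, COL1A2, COL6A2, FN1, THY1, genes behind counts of 5 or fewer, and genes said to be, were named after their values were seen. The enzyme genes and lists were chosen with earlier results of these data known. Alternatives were other pseudocounts, filters, scalings (TPM, median of ratios, quantile), variance models (statmod 1.5.0), a replicate block, an adjusted p of 0.1 and each library left out.

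Data were simulated from the levels and library spread seen here, with 200 of 15320 genes changed and equal spread in both groups (5 runs). In them 56.8% of changes of 1 log2 unit and 95.2% of changes of 2 were recovered, and 6.31% of calls were false. The real fit called 5400 genes, and spread often differed between its groups, so these rates need not hold for it. Upstream sequences are from RefSeq (GRCh38.p14); the build differs from that of the FPKM values, so these were matched by symbol only, and gene overlaps by identifier in GENCODE release 29. Figures were drawn with matplotlib 3.10.9.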

Additional observations from a re-analysis of the deposited data

How the results depend on the processing

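Of the enzyme genes, LOXL2 passed in all 10 alternatives that kept every library (adjusted p 0.00206 to 0.0339, limma), P4HA1 in 9 of 10 and P4HA2 in 8 of 10. With no filter, where many more genes are tested, 1 enzyme gene was higher and 0 lower (3 and 1 at an unadjusted p under 0.05, limma), 9 other pathway genes were lower, and 887 of all genes were higher and 1251 lower. Without a variance trend 0 enzyme genes were lower (1 at an unadjusted p under 0.05, limma), and at an adjusted p of 0.1 it was 2, with LOXL1 joining P4HA2. Leaving out 1 library gave 0 to 2 enzyme genes higher and 0 to 3 lower, 1 to 13 other pathway genes higher and 0 to 27 lower, and 9 to 2325 of all genes higher and 2 to 3943 lower; the lowest values came without a control library, where at an unadjusted p under 0.05 limma had 2 to 3 enzyme genes higher and 0 to 1 lower, and 15 to 17 other pathway genes lower. Signs turned only for genes that did not pass: LOXL3 to -0.01 without control siRNA replicate 2 and -0.09 without KLF11 siRNA replicate 2 (leave-one-out range -0.09 to 0.20), PLOD2 to 0.10 with median-of-ratios scaling, 0.03 with quantile normalization and 0.09 without control siRNA replicate 2 (leave-one-out range -0.15 to 0.09), and PLOD3 to 0.03 and 0.01 with those scalings; the cause was not tested. Over the libraries left out in turn, the rise of the log2 ratio of P4HA1 to P4HA2 was 1.20 to 2.05, that of the LOXL2 share 29.0 to 37.9 percentage points, and the difference of the PLOD2 share -0.734 to 5.77 percentage points.

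The replicate numbers did not pair the libraries (correlation across genes of the replicate differences -0.0711). With the replicate block 2 enzyme genes were higher and 1 lower, 1707 of all genes were higher and 2644 lower, and LOXL1-AS1 did not pass (adjusted p = 0.0526, limma). Without counts, what depth limits cannot be stated, and values under 1 FPKM, as for LOX, are the least certain.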
